A study of Mus musculus with 2 samples.

Results

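The genes described here are 9 members of the JAK-STAT pathway and its feedback arm: the kinase genes Jak1 and Jak2, the transcription factor genes Stat3, Stat5a and Stat5b, the feedback inhibitor genes Cish, Socs2 and Socs3, and the kinase gene Pim1. They were picked by name from the 24421 gene symbols measured, for their place in the pathway and with earlier results of these data known. RNA was sequenced in bulk from granulocyte-monocyte progenitors (GMPs), the bone marrow progenitors of granulocytes and monocytes, sorted by flow cytometry from female mice of an F1 semi-syngeneic H-2b/d background. The control library, NTB-GMP, came from non-tumor-bearing mice, and the other, 4T1-GMP, came from mice with an orthotopic implant of 4T1 mammary tumor cells, a line from a mouse mammary carcinoma. Each group was 1 library. The number of mice behind a library, the age of the tumors and the antibodies used for the sort are not given in the sample labels.

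Cytokine receptors of the hematopoietic class carry no kinase activity of their own. On binding their cytokine they activate JAK kinases, which phosphorylate STAT proteins, and the STATs then enter the nucleus and drive transcription. In the granulocyte lineage, granulocyte colony-stimulating factor (G-CSF) acts through its receptor, JAK kinases and STAT3, whereas STAT5 is the main STAT of IL-3, GM-CSF and erythropoietin. STATs also induce their own inhibitors. Cish and Socs2 are textbook targets of STAT5, Socs3 is a textbook target of STAT3 that binds the G-CSF receptor and the IL-6 receptor subunit gp130, and Pim1 encodes a survival kinase induced through both STATs.

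There was no replicate, so no p-value could be given and the spread between mice is unknown. Values are RPKM, reads scaled to gene length and library size, which allow levels of different genes to be set side by side within a library. Whole reads were recovered from the RPKM, and the 95% intervals given with levels and ratios are exact intervals on those reads. They cover counting error only, since reads are PCR products without molecular identifiers. Library sizes were 10180365 reads in NTB-GMP and 30016263 in 4T1-GMP, so intervals are wider in NTB-GMP. Tumor, mouse, sort and library preparation all differ between the 2 libraries and cannot be told apart.

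In brief, 4T1-GMP held far more Socs3 RNA than NTB-GMP, and 1.92 times as much Pim1 RNA. Stat3 was 1.34-fold higher, while Stat5a, Stat5b, Jak1 and Jak2 had ratios between 0.732 and 0.907. Cish and Socs2, the other feedback inhibitors, stayed under 1 RPKM in both libraries. Among the 7 members with a mean of at least 1 RPKM, only Socs3 was past 2-fold. Of all such genes, 3.25% were at least 2-fold higher in 4T1-GMP and 4.92% at least 2-fold lower. Socs3 reached that mean through 4T1-GMP alone and therefore had to differ.

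All 9 members have a place in the GENCODE M21 annotation of mouse build GRCm38, the same assembly as mm10, the build named in the submitters' processing notes. Stat5b (chr11:100780731-100850724, minus strand), Stat5a (chr11:100859351-100885169, plus strand) and Stat3 (chr11:100885098-100939540, minus strand) are neighbors on chromosome 11, which also holds Socs3 (chr11:117966079-117970047, minus strand). Jak1 lies at chr4:101152367-101265282 on the minus strand and Jak2 at chr19:29251828-29313080 on the plus strand. Socs2 lies at chr10:95385362-95417180 on the minus strand, Cish at chr9:107296026-107302784 on the plus strand and Pim1 at chr17:29490753-29496112 on the plus strand.

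Promoter sequences were searched because several of these genes are textbook STAT targets. RefSeq windows on GRCm38.p6, from 250 bases before to 50 bases after a transcript start, were given for 8 of the 9 members, 11 windows in all, and not for Socs2. The motif searched was TTCNNNGAA, the palindrome bound by most STATs, which reads the same on both strands. It was present in 2 of the 11 windows, those of Socs3 and Cish, and in 8.30% of all 32851 mouse windows. The windows of Jak1, Jak2, Stat3, Stat5a, Stat5b and Pim1 did not hold these letters. A match is a stretch of letters, and binding was not measured here.

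The Socs3 stretch is shown because Socs3 carried the largest difference among the members, and the Cish stretch because it is the other member with the motif. The Socs3 sequence is chr11:117969452-117969616 and the Cish sequence is chr9:107296654-107296683, each written 5′ to 3′ on the strand of its gene, with the motif in capitals.
Socs3: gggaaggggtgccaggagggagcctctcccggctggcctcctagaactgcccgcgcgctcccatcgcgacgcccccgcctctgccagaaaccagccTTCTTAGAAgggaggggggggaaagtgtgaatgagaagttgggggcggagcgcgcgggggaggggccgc
Cish: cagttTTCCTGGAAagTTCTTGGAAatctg
The Socs3 match, TTCTTAGAA, covers chr11:117969512-117969520, with its first base at position -154 when +1 is the RefSeq start. It lies 326 bases before the start of the coding transcript in GENCODE and outside any annotated exon, though within the Socs3 gene span given above. The whole Socs3 window searched, chr11:117969317-117969616, lies before that GENCODE start, so the bases next to it were not searched. The Cish matches, TTCCTGGAA at chr9:107296659-107296667 and TTCTTGGAA at chr9:107296670-107296678, begin at positions 1 and 12 and lie in an annotated exon. At least 2 matches were found in 0.457% of all windows. The pair of members with the motif had opposite levels in 4T1-GMP, where Socs3 stood at 7.19 RPKM and Cish at 0.462 RPKM.

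The levels of the 9 genes fell into 2 sets. In NTB-GMP the order was Jak1 (38.9 RPKM), Pim1 (35.5), Stat3 (30.4), Stat5a and Stat5b (23.8 each) and Jak2 (19.9), and then, far lower, Cish (0.636), Socs3 (0.216) and Socs2 (0.109). The counting intervals of Jak1 and Pim1 overlapped, as did those of Stat5a and Stat5b, of Cish and Socs3, and of Socs3 and Socs2. In 4T1-GMP the order was Pim1 (68.0 RPKM), Stat3 (40.8), Jak1 (35.3), Stat5a (19.3), Stat5b (17.5), Jak2 (17.3), Socs3 (7.19), Cish (0.462) and Socs2 (0.161). There the intervals of Stat5b and Jak2 overlapped. The place of Stat5a is uncertain, because its intervals widen to 18.2 to 30.8 RPKM in NTB-GMP and 16.3 to 22.8 RPKM in 4T1-GMP on the lowest reads its values allow. On those it overlaps Stat3, Stat5b and Jak2 in NTB-GMP, and Stat5b and Jak2 in 4T1-GMP. Pim1 and Stat3 thus stood above Jak1 in 4T1-GMP and below it in NTB-GMP.

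**Figure D1:**
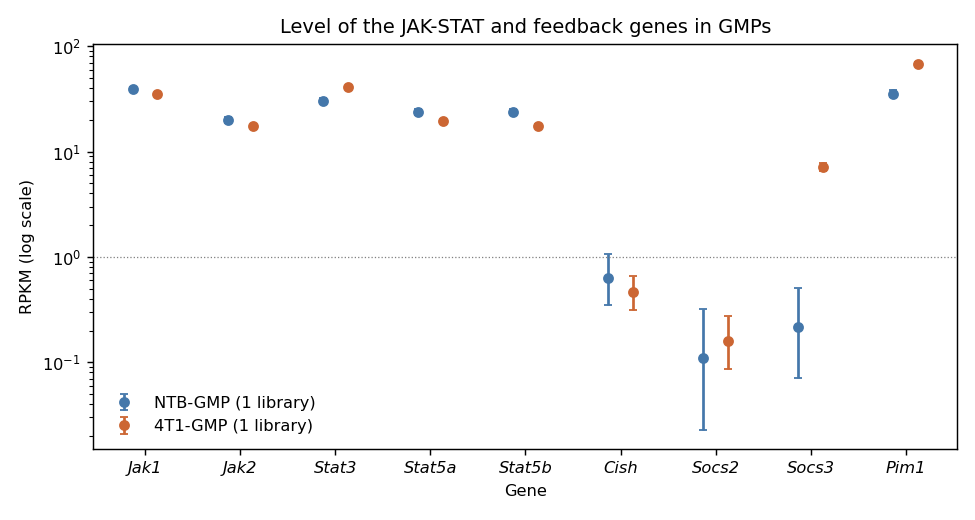
Level of each of the 9 genes in RPKM, on a log axis, in NTB-GMP (blue) and 4T1-GMP (orange), 1 library each. Bars are 95% counting intervals, and the dotted line marks 1 RPKM. Jak1, Jak2, Stat3, Stat5a, Stat5b and Pim1 lie between 17.3 and 68.0 RPKM in both libraries, Cish and Socs2 lie under 1 RPKM in both, and Socs3 goes from 0.216 to 7.19 RPKM.

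Differences between the libraries were taken as log2 ratios of RPKM + 0.1, 4T1-GMP over NTB-GMP, which understates the change of low genes. The comparison covered the 10378 genes with a mean of at least 1 RPKM. Their median log2 ratio was 0.05, with quartiles of -0.26 and 0.32. Of the 9 members, 7 met this minimum, and Cish and Socs2 did not. Among the 7, 1 was at least 2-fold higher in 4T1-GMP, against 3.25% of all genes compared (337 genes), and 0 were at least 2-fold lower, against 4.92% (511 genes). At 1.5-fold, 2 members were higher, Socs3 and Pim1, against 9.8% of all genes, and 0 were lower, against 11.6%. The log2 ratio was above 0 for 3 of the 7 and below 0 for 4, and 54.7% of all genes compared were above 0. Socs3 met the minimum through 4T1-GMP alone and therefore had to differ, so these counts say nothing about the set as a whole.

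The scaling of the libraries matters for differences of this size. Rn45s, the ribosomal RNA precursor, took up 17.0% of the reads counted for NTB-GMP against 6.98% for 4T1-GMP. When its reads are taken out of both totals, the log2 ratio of RPKM moves by -0.16 for every gene, and by less for genes near the pseudocount, such as Socs3 and Socs2. The median of all genes compared becomes -0.11, and 39.1% of them are above 0. The shares past 2-fold then become 2.53% higher and 7.16% lower. The direction of each of the 9 members was the same under the 3 other scalings tried, which were totals without Rn45s, quantile normalization and centering on the median.

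**Figure D2:**
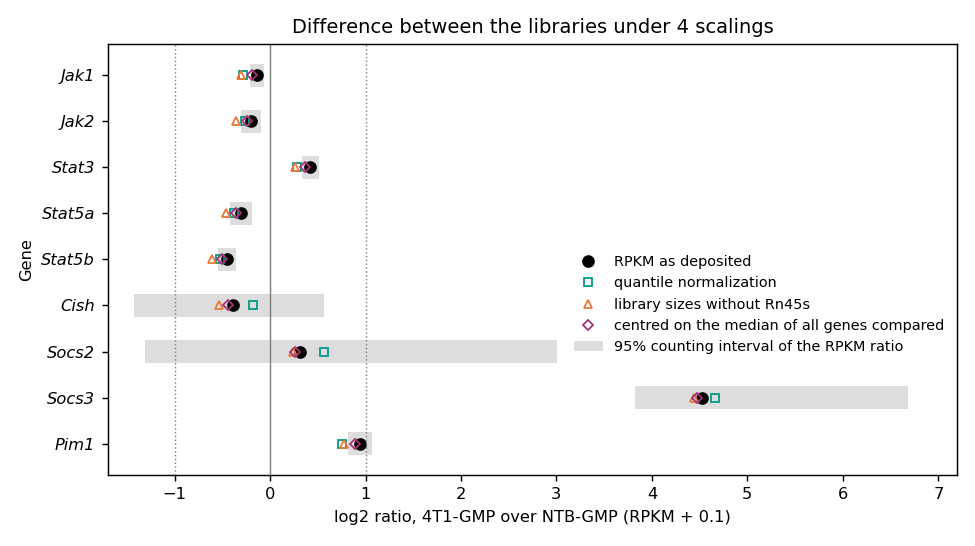
log2 ratio of RPKM + 0.1, 4T1-GMP over NTB-GMP, for each of the 9 genes under 4 scalings of the libraries (symbols). Grey bars are the 95% counting interval of the RPKM ratio and dotted lines mark 2-fold. The symbols of each gene lie on the same side of 0, and the intervals of Cish and Socs2 span 0.

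The JAK genes had RPKM ratios a little under 1. Jak1, which pairs with the interferon, IL-6 and common gamma chain receptors, was at 38.9 RPKM in NTB-GMP and 35.3 in 4T1-GMP, from 2100 and 5617 reads. Its RPKM ratio was 0.907 (0.863 to 0.954) and its log2 ratio -0.14. Jak2, the kinase of the erythropoietin, IL-3 and GM-CSF receptors, was at 19.9 RPKM and 17.3 RPKM, from 1023 and 2632 reads. Its RPKM ratio was 0.873 (0.811 to 0.939), a log2 ratio of -0.20. Both ratios were below 1 by more than counting error, but 33.3% and 29.1% of all genes compared had lower log2 ratios than Jak1 and Jak2. Jak1 over Jak2, a ratio within each library from which the library size cancels, was 1.96 in NTB-GMP and 2.04 in 4T1-GMP. That ratio changed 1.04-fold (0.952 to 1.14), an interval that includes no change.

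Set among all 4 JAK genes, the summed level was 90.1 RPKM in NTB-GMP and 88.7 in 4T1-GMP. Jak1 made up 43.2% of it in NTB-GMP and 39.8% in 4T1-GMP, and was the highest JAK gene in both. Jak2 made up 22.1% and 19.6%. It was number 2 of the JAK genes by level in NTB-GMP and ranked behind Jak3, the kinase of the common gamma chain, in 4T1-GMP, where Jak3 made up 24.7%.

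The STAT members moved apart. Stat3, the STAT of G-CSF and IL-6 signaling, was at 30.4 RPKM (28.9 to 32.1) in NTB-GMP against 40.8 RPKM (39.7 to 41.9) in 4T1-GMP, from 1390 and 5493 reads. Its RPKM ratio was 1.34 (1.26 to 1.42), a log2 ratio of 0.42, and 82.2% of all genes compared had lower log2 ratios. Without Rn45s in the totals its log2 ratio was 0.26. The difference was short of 1.5-fold.

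Stat5a and Stat5b encode the paralogous STAT5 proteins. In NTB-GMP both stood at 23.8 RPKM, with intervals of 22.3 to 25.5 and 22.6 to 25.2. In 4T1-GMP, Stat5a was at 19.3 RPKM and Stat5b at 17.5 RPKM. The RPKM ratio of Stat5b was 0.732 (0.686 to 0.782), a log2 ratio of -0.45, from 1321 and 2851 reads. That of Stat5a was 0.811 (0.747 to 0.880), a log2 ratio of -0.30, from 826 and 1974 reads. These reads of Stat5a are the lowest pair that the RPKM allow, 59 and 141, multiplied by 14 so that the implied gene length approaches that of the shortest coding transcript. On the lowest pair itself the interval is 0.594 to 1.12 and includes 1. The transcripts of the paralogs share sequence: 15.8% of the 50-base stretches of Stat5a also occur in Stat5b, so reads could be split between them and the 2 values are not fully separate.

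Ratios within a library, chosen after the levels were seen, put Stat3 and STAT5 side by side without the library size. Stat3 over Stat5b was 1.28 in NTB-GMP and 2.34 in 4T1-GMP, a 1.83-fold difference (1.68 to 2.00). Stat3 over the sum of Stat5a and Stat5b was 0.638 in NTB-GMP and 1.11 in 4T1-GMP, a 1.74-fold difference. By these values the STAT5 genes together exceeded Stat3 in the control library and not in the library from tumor-bearing mice. No interval was computed for this ratio. The order in 4T1-GMP is uncertain, since the interval of Stat5a reaches 22.8 RPKM there on its lowest reads. Stat5a over Stat5b was 1.00 and 1.11.

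The sum over all 7 STAT genes was nearly the same in the libraries, at 129 RPKM in NTB-GMP against 128 RPKM in 4T1-GMP, a ratio of 0.986. Within that sum Stat3 went from 23.5% to 32.0% and was the highest STAT gene in both. Stat5a went from 18.4% to 15.2% and Stat5b from 18.4% to 13.7%. Stat6, the STAT of IL-4 and IL-13, passed both of them, going from 17.3% to 19.6%. By these values the STAT5 genes ranked 2 and 3 by level in NTB-GMP, and 3 and 4 in 4T1-GMP. The order in NTB-GMP is uncertain, since Stat6, at 22.4 RPKM, lay within the counting interval of Stat5a there.

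**Figure D3:**
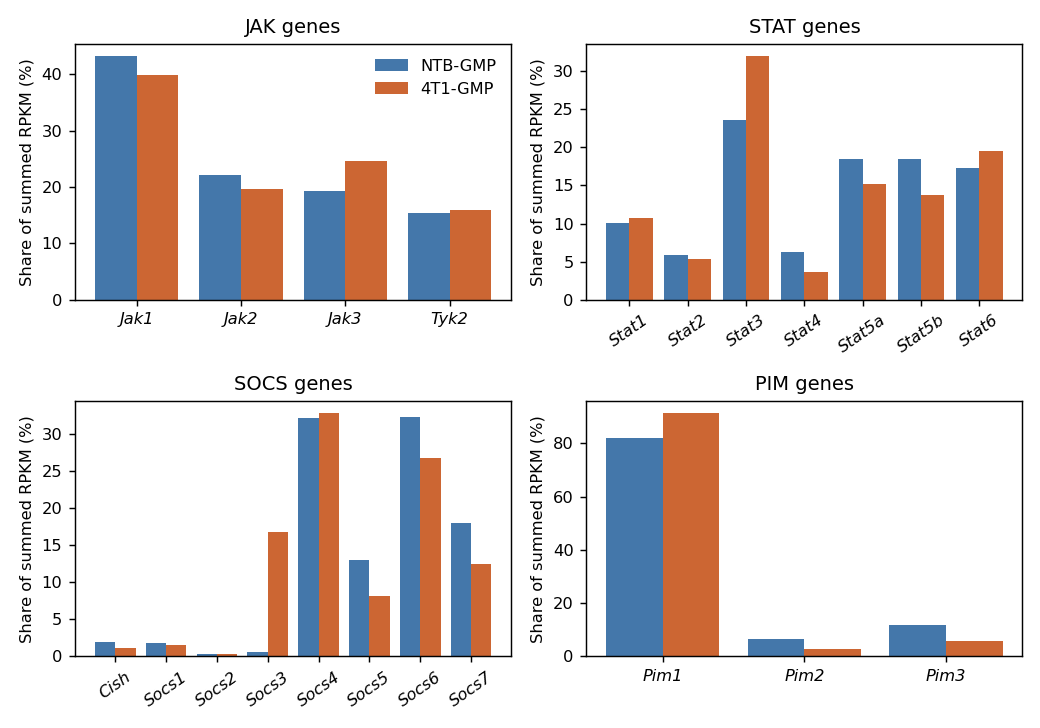
Share of each gene in the summed RPKM of its family (JAK, STAT, SOCS including Cish, and PIM) in NTB-GMP (blue) and 4T1-GMP (orange), 1 library each. Stat3 goes from 23.5% to 32.0% of the STAT sum, Socs3 from 0.652% to 16.8% of the SOCS sum, and Pim1 from 81.8% to 91.3% of the PIM sum.

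Of the feedback inhibitors, Cish and Socs2 were barely detected. Cish, which blocks STAT5 docking on cytokine receptors, was at 0.636 RPKM (0.348 to 1.07) in NTB-GMP against 0.462 RPKM (0.312 to 0.660) in 4T1-GMP, from 14 and 30 reads. Its ratio of 0.727 had an interval of 0.374 to 1.48. Socs2, known as the brake on growth hormone signaling through STAT5b, was at 0.109 RPKM (0.0225 to 0.319) and 0.161 RPKM (0.0855 to 0.275), from 3 and 13 reads. Its ratio of 1.47 had an interval of 0.404 to 8.04. A difference was not detectable at this depth for either gene. Some of the few Socs2 reads may be shared, since 18.4% of its 50-base stretches also occur in the gene Gm9847.

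Socs3, which inhibits G-CSF and IL-6 receptor signaling, was the exception among the feedback inhibitors. It was at 0.216 RPKM (0.0703 to 0.505) in NTB-GMP against 7.19 RPKM (6.57 to 7.86) in 4T1-GMP. The RPKM ratio was 33.2 (14.1 to 103), and the log2 ratio with the pseudocount was 4.53, which is 23.0-fold. The reads were 5 in NTB-GMP and 490 in 4T1-GMP when the implied gene length is set near that of the transcript. On the lowest pair the RPKM allow, 1 and 98 reads, the interval is 5.83 to 1326. The low end rests on few reads, and under either pair the interval lies above 5-fold.

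Among all 10378 genes compared, 21 (0.202%) had a higher log2 ratio than Socs3. Of the 10378, 57 were under 0.5 RPKM in NTB-GMP and had to be at least 2-fold higher to reach the minimum. The median log2 ratio of these 57 was 3.76, and 19 of them exceeded Socs3. Since Socs3 met the minimum through 4T1-GMP alone, it was also set among the 1429 genes that had between 0.1 and 0.5 RPKM in NTB-GMP, a band that uses the control library only and was chosen after the values were seen. Their median log2 ratio was -0.45, 153 of them (10.7%) were at least 2-fold higher in 4T1-GMP, and 4 exceeded Socs3. In the family of 8 SOCS genes, Socs3 ranked 7 in NTB-GMP with 0.652% of the summed level, and 3 in 4T1-GMP with 16.8%. Socs4 and Socs6 were the highest members of that family in both libraries. The summed level of the family was 33.2 RPKM and 42.8 RPKM.

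Pim1, the survival kinase, was the most abundant of the 9 genes in 4T1-GMP. It was at 35.5 RPKM (32.8 to 38.3) in NTB-GMP against 68.0 RPKM (65.8 to 70.3) in 4T1-GMP, from 633 and 3580 reads. Its RPKM ratio was 1.92 (1.76 to 2.09), and its log2 ratio of 0.94 lay just under the 2-fold line. A higher log2 ratio was found in 377 genes, and 96.4% of all genes compared had a lower log2 ratio. Without Rn45s the log2 ratio was 0.77, and with quantile normalization it was 0.75. Pim1 over Stat3 was 1.17 in NTB-GMP and 1.67 in 4T1-GMP, a 1.43-fold difference (1.29 to 1.59). Its paralogs were low: Pim1 made up 81.8% and 91.3% of the summed level of the 3 PIM genes.

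**Figure D4:**
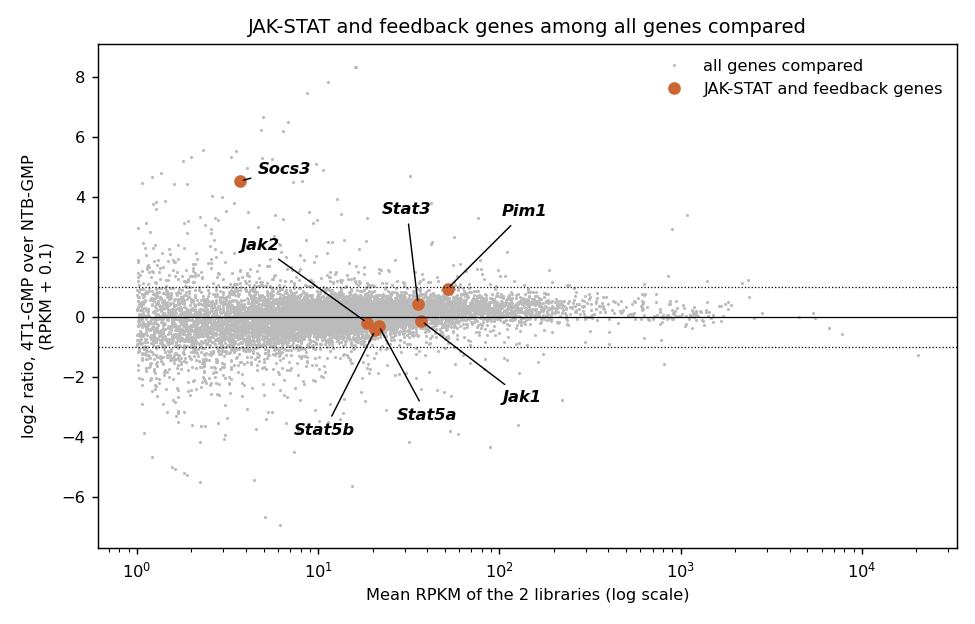
log2 ratio of RPKM + 0.1, 4T1-GMP over NTB-GMP, against the mean RPKM on a log axis, for all 10378 genes with a mean of at least 1 RPKM (grey). The 7 members among them are orange and dotted lines mark 2-fold. Socs3 lies at 4.53, among the genes with the highest ratios, Pim1 lies at 0.94, just under the line, and the other 5 lie between -0.45 and 0.42.

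Some annotation limits touch single members. The exons of Stat3 and Stat5a overlap by 72 bases on opposite strands, those of Pim1 overlap Gm26885 by 488 bases, and those of Cish overlap Gm17040 and Gm17041, the latter by 479 bases. Whether strand was used in counting is not given in the sources used here, so reads in these stretches cannot be assigned. Neither Socs3 nor Jak2 has an overlapping gene or shared 50-base stretches with another gene.

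Markers of other cells moved with these results. Of 14 mature neutrophil markers, 13 were at least 2-fold higher in 4T1-GMP, against 3.25% of all genes compared. Padi4 was the exception (2.60 and 2.85 RPKM). Of the 13, Mmp8, Mmp9, Ly6g and Il1b met the minimum through 4T1-GMP alone and therefore had to be higher. The summed level of the 14 was 517 RPKM in NTB-GMP against 4087 RPKM in 4T1-GMP, and none was at 0 in either library. Of 13 monocyte and dendritic cell markers, 9 were compared and 7 were at least 2-fold lower, with a summed level of 252 RPKM and 71.0 RPKM. Of 6 basophil and mast cell markers, 4 were at least 2-fold lower, and the sum was 455 RPKM and 188 RPKM. Of all genes compared, 4.92% were at least 2-fold lower. The part of these markers in the values of Socs3, Pim1, Stat3, Stat5a and Stat5b was not tested. In bulk RNA, a different share of cells of a type and a different amount of RNA per cell cannot be told apart.

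The GMP label was checked on 10 markers of these cells, which were all present in both libraries, led by Mpo, with a summed level of 10661 RPKM and 16326 RPKM. Of these, 3 were at least 2-fold higher (Prtn3, Ctsg and Ms4a3, granule proteins and a myeloid progenitor marker) and 1 was at least 2-fold lower (Cd34, a progenitor surface marker). The shares of all genes compared were 3.25% higher and 4.92% lower. Of the other surface markers of GMPs, Kit was at 78.5 and 49.1 RPKM, Fcgr3 at 53.1 and 28.6 RPKM, and Fcgr2b at 47.3 and 64.6 RPKM, so 3 of these 4 surface genes were lower in 4T1-GMP while the granule genes carried the higher sum. Among 8 erythroid and megakaryocyte markers the sum was 21.3 and 6.07 RPKM, and among 8 stem and early progenitor markers it was 44.7 and 20.7 RPKM, with Ly6a listed at 0 in NTB-GMP. Hba-a1 and Hbb-bs, the hemoglobin genes, were at 0 in both. The 8 lymphoid markers summed to 0.949 and 0.629 RPKM. Among 5 epithelial markers, Epcam, Krt14 and Krt5 were at 0 in both, and Krt18 made up most of the sum of 12.9 and 9.01 RPKM.

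Upstream of the members, the receptors were mixed. Of 24 other receptor genes, 16 were compared. Of these, 2 (12.5%) were at least 2-fold higher and 1 (6.25%) at least 2-fold lower, against 3.25% and 4.92% of all genes compared. The median log2 ratio of the 16 was -0.22, against 0.05 for all genes compared. Csf3r, the G-CSF receptor whose cytoplasmic tail SOCS3 binds, was at 43.2 RPKM in NTB-GMP against 92.2 RPKM in 4T1-GMP, 2.13-fold (2.03 to 2.24), and Il4ra, the IL-4 receptor, at 6.11 and 16.4 RPKM. Csf3r fell under the 2-fold line without Rn45s and with quantile normalization. Socs3 over Csf3r was 0.00501 in NTB-GMP and 0.0780 in 4T1-GMP, the first of which rests on the same 5 Socs3 reads, or 1 on the lowest pair. Il5ra, the IL-5 receptor, was lower at 1.82 and 0.300 RPKM. Il6st, which encodes gp130, the other receptor partner of SOCS3, was at 11.9 and 5.90 RPKM. Its RPKM ratio of 0.496 (0.449 to 0.548) fell just short of the 2-fold line on the scale with the pseudocount. Il3ra and Il10ra fell just short of it as well, with RPKM ratios of 0.502 and 0.487. Each of these genes passed it without Rn45s. Of the 16 receptor genes compared, 6 had log2 ratios above 0. Ifngr1, an interferon gamma receptor, was the most abundant, at 153 and 218 RPKM.

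Few ligand genes were detected in the sorted cells. Of 10 cytokine genes, 8 were listed at 0 in both libraries, among them Csf3, which encodes G-CSF. Osm, oncostatin M, was the 1 ligand compared, at 1.55 RPKM in each library. Il6, which signals through gp130 and STAT3, had a mean just under the minimum and was named after its values were seen. It was at 1.81 RPKM in NTB-GMP and 0.184 in 4T1-GMP, from 20 and 6 reads, a ratio of 0.102 (0.0334 to 0.263).

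At the level of the members themselves, the 6 remaining kinase and STAT genes included 0 past 2-fold in either direction, with a median log2 ratio of 0.05. Stat6 was the highest, at 22.4 and 24.9 RPKM. Of 17 other inhibitors, 16 were compared and 0 passed 2-fold in either direction, with a median of 0.02. Ptpn6, the phosphatase SHP-1, was the highest at 53.4 and 64.0 RPKM. The 16 had log2 ratios between -0.76 and 0.50. Socs3 is not set against these 16 by this count, since it met the minimum only through 4T1-GMP. Of all genes compared, 3.25% were at least 2-fold higher and 4.92% at least 2-fold lower. A count of 0 in lists this short therefore does not set them apart from other genes.

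Downstream, of 18 other genes known as STAT targets, 16 were compared, 3 (18.8%) were at least 2-fold higher and 2 (12.5%) at least 2-fold lower, against 3.25% and 4.92% of all genes compared. The median log2 ratio was 0.36, against 0.05. This list and the other pathway lists were written with earlier results of these data known. Their shares therefore say nothing about STAT targets or the pathway as a set. Lrg1, a secreted glycoprotein stored in neutrophil granules, was at 1.38 RPKM in NTB-GMP against 16.4 RPKM in 4T1-GMP. Bcl3, a nuclear IkB family protein, was at 1.28 and 4.81 RPKM. Cebpb, the C/EBP factor of emergency granulopoiesis, was at 5.76 and 11.9 RPKM and passed 2-fold by a small margin, with a log2 ratio of 1.04 that dropped under the line without Rn45s. Bcl2, an inhibitor of apoptosis, was lower at 15.7 and 3.49 RPKM, and so was Fos, an AP-1 subunit, at 29.2 and 12.4 RPKM. Myc was the highest of the list, at 138 and 108 RPKM. Over all 75 other pathway genes, 55 were compared, 5 (9.09%) were at least 2-fold higher and 3 (5.45%) at least 2-fold lower, against 3.25% and 4.92% of all genes compared. Their median log2 ratio was 0.03, against 0.05.

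**Figure D5:**
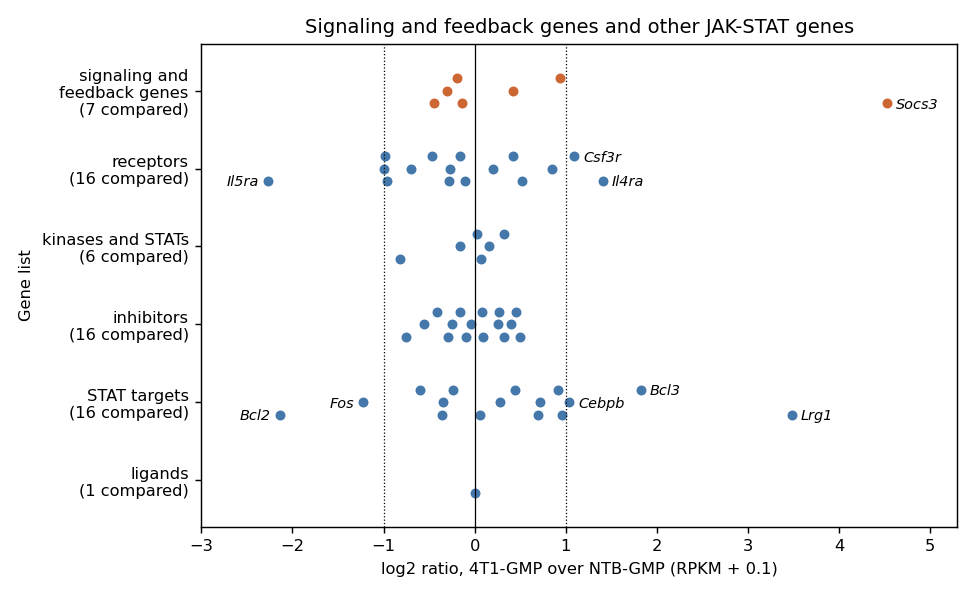
log2 ratio of RPKM + 0.1, 4T1-GMP over NTB-GMP, for the signaling and feedback genes (orange) and for 5 lists of other JAK-STAT genes (blue). Each point is a gene with a mean of at least 1 RPKM, points are shifted up or down only to separate them, dotted lines mark 2-fold, and genes past a line are named. No kinase, STAT or inhibitor of the other lists passes 2-fold, against 3.25% of all genes compared higher and 4.92% lower. Socs3, which met the minimum through 4T1-GMP alone, lies at 4.53.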

How the data were processed

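For each library the authors deposited 1 RPKM value per gene symbol, which their labels credit to edgeR. The submitters' processing notes name CASAVA 1.8.2, cutadapt 1.2.1, TopHat2 2.0.13, Picard 1.97, HTSeq 0.6.1, edgeR 3.12.1 and build mm10, without role or order. The gene lengths and strand setting are not given in the sources used here.

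Ratios were computed on the log2(RPKM + 0.1) scale for genes whose mean RPKM reached 1, and 2-fold was taken as the size of a change. With 1 library per group there was no test. Reads were recovered as the lowest whole numbers that give the ratio of a gene's RPKM in the 2 libraries. Those of Stat5a and Socs3 were multiplied up to the transcript length. Reads of genes other than the members were left at the lowest numbers. Ratio intervals are 95% Clopper-Pearson and level intervals exact Poisson. The procedure was tested on simulated data. A floor of detection of 3 reads was named as a setting but was not applied to any gene.

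Members and gene lists were chosen with earlier results of these data known. Genes named were all members, other listed genes past 2-fold, the highest gene of each list, Csf3r, Csf3 and Rn45s. Il6st, Il3ra, Il10ra, Stat6 and Jak3, the SOCS paralogs and the markers named were chosen after their values were seen. So were the within-library ratios, the family shares and the band of low genes. Alternatives were pseudocounts of 1 and 0.01, other minimum levels, 3 other scalings and 1.5-fold. Python 3.11.15, numpy 2.4.6, pandas 2.3.3, scipy 1.17.1 and matplotlib 3.10.9 were used.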

Additional observations from a re-analysis of the deposited data

How the results depend on the processing

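No member turned from higher to lower, or the reverse, under any alternative that gave it a value. Of 45 member values recomputed with another pseudocount or scaling, 35 stayed within the counting interval. The other 10 included Socs3 at a log2 ratio of 2.75 with a pseudocount of 1, and Stat5a (-0.46), Stat5b (-0.61), Jak1 (-0.30) and Jak2 (-0.36) without Rn45s in the library sizes. The count of members at least 2-fold higher was 1, became 0 at a minimum mean of 5 RPKM, which Socs3 does not reach, and 2 at 1.5-fold. Of the other JAK-STAT genes, 5 were at least 2-fold higher. That count was 3 without Rn45s and 10 at 1.5-fold. Those at least 2-fold lower were 3, against 5 with a pseudocount of 0.01, 7 with all genes above 0, 7 without Rn45s, 6 after centering on the median and 10 at 1.5-fold. No paired analysis was possible because the groups held 1 library apiece, which also left no replicate to drop. Depth limited Cish and Socs2, with 14 and 3 reads in NTB-GMP.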

Other observations

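Some other JAK-STAT genes under the minimum mean of 1 RPKM still differed by more than counting error, and Ccnd1 and Ghr were named after their values were seen. Ccnd1, the cyclin D1 gene and a known STAT target, was at 0.957 RPKM in NTB-GMP against 0.105 RPKM in 4T1-GMP, a ratio of 0.110 (0.0522 to 0.216) from 37 and 12 reads. Ghr, the growth hormone receptor, went the other way, at 0.0652 and 0.752 RPKM, with a ratio of 11.5 (1.93 to 469). That interval rests on 1 read in NTB-GMP and 34 in 4T1-GMP, the lowest pair the RPKM allow.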
